A study of Homo sapiens with 6 samples.

Results

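The small nucleolar RNA (snoRNA) host genes examined here are 10 long noncoding genes, *GAS5*, *ZFAS1*, *SNHG1*, *SNHG5*, *SNHG6*, *SNHG7*, *SNHG8*, *SNHG12*, *SNHG15* and *SNHG16*. They were taken by symbol from a table of read counts for 58336 genes, each symbol matched 1 Ensembl identifier, and all 10 passed the filter on low counts. The libraries came from A2780 cells, a human ovarian cancer line, exposed to DMSO vehicle or to TH588 at 6 µM for 48 h, with 3 replicates (A, B and C) of each. TH588 is a first-generation inhibitor of the nucleotide pool enzyme MTH1 that also disturbs mitosis. All results are from this single line at this single dose and time, and the inhibitor was compared only with its vehicle. The methods call the replicates biological triplicates.

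snoRNAs guide the chemical modification of ribosomal and other RNAs: those of the box C/D class direct methylation of ribose, and those of the box H/ACA class direct conversion of uridine to pseudouridine. Most human snoRNAs are cut from the introns of a host transcript after splicing. In the noncoding host genes the spliced exons form a long noncoding RNA, which in several cases is loaded onto ribosomes and destroyed by nonsense-mediated decay (NMD), and transcription commonly starts in a pyrimidine tract like that of mRNAs for ribosomal proteins (TOP mRNAs). *GAS5* was named for its accumulation in growth-arrested cells.

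After TH588, 6 of the 10 host genes were lower and 0 were higher (adjusted p under 0.05, edgeR's quasi-likelihood test over 15844 genes). The count of 0 higher genes was also 0 at an unadjusted p under 0.05, and with DESeq2 and limma-voom. The genes that fell were *SNHG12*, *SNHG5*, *SNHG1*, *SNHG8*, *ZFAS1* and *GAS5*, to between 40.7% and 64.5% of the DMSO level. *SNHG7*, *SNHG15*, *SNHG6* and *SNHG16* did not pass the threshold. For comparison, 25.3% of all genes tested were called lower, 24.2% were called higher and 49.6% were called in either direction. The median log2 fold change was -0.79 over the 10 host genes and 0.02 over all genes tested. Whether such a fall took place in all cells or in part of them cannot be told apart in bulk RNA.

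Total counts ranged from 28537837 in TH588 replicate A to 99074175 in TH588 replicate B. The rows of snoRNAs and Cajal body RNAs took 8.33%, 11.97% and 10.86% of all counts in DMSO replicates A to C. With TH588 they took 23.32%, 12.27% and 14.52%. Every TH588 library thus lay above every DMSO library, and TH588 replicate A was the highest. Without TH588 replicate A, 6 host genes were called lower, with a median log2 fold change of -0.89. With TMM normalization 3839 genes were higher and 4013 lower, and with library size only 4248 were higher and 2786 lower. That scaling moved the median over all genes tested from 0.02 to 0.13 on the log2 scale and left the same number of host genes, 6, called lower. Of 9 epithelial and ovarian markers only *EPCAM* and *KRT18* passed the filter on low counts, while *PAX8*, *CDH1*, *KRT7* and *KRT19* had at most 2 counts in any library, so most markers of ovarian epithelium were close to absent. *EPCAM* rose from 0.644 ± 0.212 to 4.74 ± 0.350 CPM (SD, n = 3 each), by 2.88 on the log2 scale, and *KRT18* rose by 0.88, and their part in the results on the host genes was not tested. Of 8 markers of blood, endothelial and stromal cells, *DCN*, *COL1A1* and *LUM* passed the filter and none of them passed the threshold for a change in edgeR, with 0 also at an unadjusted p under 0.05.

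The start sites of the host genes are shown first, because transcription starts in a pyrimidine tract are what these genes are known to share with TOP mRNAs. Each line gives 75 bases, from 40 before the annotated start to 35 from the start on, 5′ to 3′ on the strand of the gene. Capitals mark the longest run of at least 5 C or T bases that touches the 5 bases before or the 15 bases from the start, and any TATAAA or TATATAA between 45 and 15 bases before it. RefSeq's promoter table (GRCh38.p14) held 8 of the 10 genes. The RefSeq start lies 1110 bases from the start in the deposited table for *SNHG12*, 464 for *ZFAS1* and 163 for *GAS5*. *SNHG12* and *ZFAS1* are still printed at their RefSeq starts, as are the other genes except *GAS5*. For *GAS5*, which held no such run at its RefSeq start, the window at the start in the deposited table is printed, read from GRCh38. Windows at that start are not shown for the other genes.
*GAS5* (chr1:173868848-173868922, minus strand): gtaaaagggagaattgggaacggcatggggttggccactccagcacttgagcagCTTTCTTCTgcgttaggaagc
*ZFAS1* (chr20:49278602-49278676, plus strand): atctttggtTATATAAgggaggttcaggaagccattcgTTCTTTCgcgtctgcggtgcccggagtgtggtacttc
*SNHG1* (chr11:62855851-62855925, minus strand): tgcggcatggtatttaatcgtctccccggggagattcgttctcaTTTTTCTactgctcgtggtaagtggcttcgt
*SNHG5* (chr6:85678699-85678773, minus strand): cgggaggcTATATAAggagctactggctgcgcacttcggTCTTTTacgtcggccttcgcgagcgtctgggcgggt
*SNHG12* (chr1:28581839-28581913, minus strand): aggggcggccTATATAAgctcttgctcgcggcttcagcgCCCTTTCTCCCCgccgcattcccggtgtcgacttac
*SNHG8* (chr4:118278722-118278796, plus strand): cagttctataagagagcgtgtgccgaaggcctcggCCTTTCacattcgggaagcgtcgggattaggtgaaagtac
*SNHG7* (chr9:136728150-136728224, minus strand): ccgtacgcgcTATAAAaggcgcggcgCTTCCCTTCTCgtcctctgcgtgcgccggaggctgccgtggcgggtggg
*SNHG16* (chr17:76557724-76557798, plus strand): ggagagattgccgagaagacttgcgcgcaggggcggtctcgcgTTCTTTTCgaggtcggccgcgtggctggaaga

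In the RefSeq windows 7 of the 8 host genes held such a pyrimidine run, against 46.6% of the 35116 promoters in the table. No chromosome was left out of those promoters. Among the 8 host genes *GAS5* was the exception, at its RefSeq start. At its start in the deposited table, a run of 9 bases met the rule only with its first base. That base is the last of the 15 bases from the start, so the run lies downstream of the start. In the RefSeq windows the marked run also begins after the start for *SNHG1* and *SNHG16*, and for *SNHG7* it ends before the start. The rule asks for a run near the start, not for one that includes it, and shorter runs were not marked. TATAAA or TATATAA was found upstream in 4 of the 8 windows, those of *ZFAS1*, *SNHG5*, *SNHG12* and *SNHG7*, against 2.77% of all promoters. The windows with these letters belong both to genes that fell and to *SNHG7*, which did not pass the threshold. The motifs were searched on the strand of the gene only, and they are matches of letters, not measured start sites.

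Levels are given as CPM, the counts of a gene relative to all counts of its library after TMM normalization. *GAS5* hosts a series of box C/D snoRNAs and had the highest CPM of the members with DMSO. Its level was 126.9, 146.9 and 142.7 CPM with DMSO, and 121.2, 73.8 and 74.7 CPM with TH588, here and for the other genes in the order of replicates A to C. The groups did not overlap, although TH588 replicate A lay close to the lowest DMSO library. The change on the log2 scale was -0.63 with a standard error of 0.16 (adjusted p = 0.00597). The log2 fold change was -0.89 without TH588 replicate A, -0.51 without TH588 replicate B and -0.49 without TH588 replicate C (adjusted p = 5.42e-06, 0.019 and 0.0414), and with the rows of small nucleolar RNAs removed before normalization it was -0.63.

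*SNHG1*, a host of several box C/D snoRNAs that lies head to head with *SLC3A2*, measured 31.1, 33.2 and 30.0 CPM with DMSO and 16.5, 15.5 and 14.5 CPM with TH588. Every TH588 library was thus well below every DMSO library. The change on the log2 scale was -1.03 with a standard error of 0.09 (adjusted p = 2.81e-06), and it stayed between -1.06 and -0.96 with each library left out in turn.

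*SNHG12*, which hosts snoRNAs of both classes, showed the largest fall among the 10. It was at 2.51, 2.62 and 3.41 CPM with DMSO and at 0.897, 0.965 and 1.53 CPM with TH588. TH588 replicate C was the highest of its group and still below the lowest DMSO library. The change on the log2 scale was -1.30 with a standard error of 0.23 (adjusted p = 0.000609).

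*SNHG5*, a host of box C/D snoRNAs of the SNORD50 family, was at 2.99, 4.70 and 3.39 CPM with DMSO and at 1.61, 1.66 and 1.65 CPM with TH588. The TH588 libraries lay close together (SD 0.0305 CPM, n = 3), while DMSO replicate B stood above the other DMSO libraries. The change on the log2 scale was -1.17 with a standard error of 0.19 (adjusted p = 0.000339), and -0.96 without DMSO replicate B.

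*SNHG8*, which hosts the box H/ACA RNA SNORA24, was at 1.97, 2.57 and 2.83 CPM with DMSO and at 1.12, 1.10 and 1.56 CPM with TH588. The groups did not overlap. The change on the log2 scale was -0.95 with a standard error of 0.22 (adjusted p = 0.00321).

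*ZFAS1*, the host of the SNORD12 family of box C/D snoRNAs, was at 1.77, 1.76 and 1.90 CPM with DMSO and at 1.16, 0.579 and 1.16 CPM with TH588. TH588 replicate B was the lowest library, and the groups did not overlap. The change on the log2 scale was -0.95 with a standard error of 0.27 (adjusted p = 0.012) with all libraries and -0.64 without TH588 replicate B. Exons of other genes cover 46.9% of the exon bases of *ZFAS1*, the largest share among the 10.

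The 4 members that did not pass the threshold differed in how much their data allow. *SNHG16*, a host of the SNORD1 family of box C/D snoRNAs, was abundant and nearly level, at 92.2, 108.2 and 103.5 CPM with DMSO and 103.4, 92.8 and 108.6 CPM with TH588. The groups overlapped, and the 95% interval of its log2 fold change ran from -0.19 to 0.20 around 0.00 (adjusted p = 0.977). The sign of this value turned without DMSO replicate A (-0.04) and without TH588 replicate C (-0.03). *SNHG15*, the host of the box H/ACA RNA SNORA9, was at 5.20, 5.83 and 4.97 CPM with DMSO and 4.56, 4.82 and 3.22 CPM with TH588. Its groups did not overlap, but the interval of the log2 fold change of -0.35 reached from -0.71 to 0.01 (adjusted p = 0.0975). Without TH588 replicate B it was -0.48 and passed the threshold (adjusted p = 0.0447), and without TH588 replicate C it was -0.16 (adjusted p = 0.429).

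*SNHG7*, which hosts box H/ACA snoRNAs of the SNORA17 family, was at 1.12, 1.35 and 1.14 CPM with DMSO and 0.859, 1.01 and 0.683 CPM with TH588. The groups were apart, with a log2 fold change of -0.49 and an interval from -1.03 to 0.05 (adjusted p = 0.119). It was -0.32 without TH588 replicate C and -0.67 without TH588 replicate B, and neither value passed the threshold (adjusted p = 0.387 and 0.0961). *SNHG6*, the host of the box C/D RNA SNORD87, was the scarcest member, with 4 to 31 counts per library. It was at 0.304, 0.194 and 0.331 CPM with DMSO and 0.149, 0.221 and 0.324 CPM with TH588. The groups overlapped, and the interval of its log2 fold change of -0.19 ran from -1.18 to 0.80 (adjusted p = 0.759). With each library left out its log2 fold change lay between -0.48 and -0.02. In all, 8 of the 10 members had no overlap between the groups and were lower with TH588, against 29% of all genes tested.

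**Figure D1:**
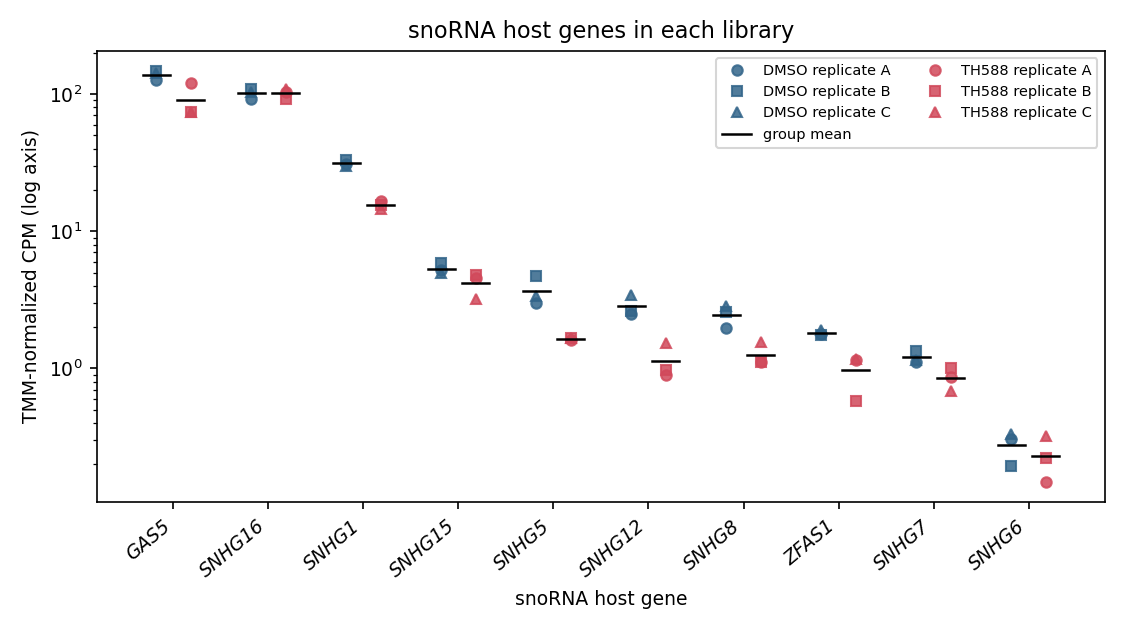
TMM-normalized CPM (log axis) of the 10 snoRNA host genes in each of 6 libraries, with the group mean as a bar. *GAS5* and *SNHG16* are the most abundant, *SNHG16* overlaps fully between the groups, and the *GAS5* point of TH588 replicate A (121.2 CPM) lies near the DMSO points.

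**Figure D2:**
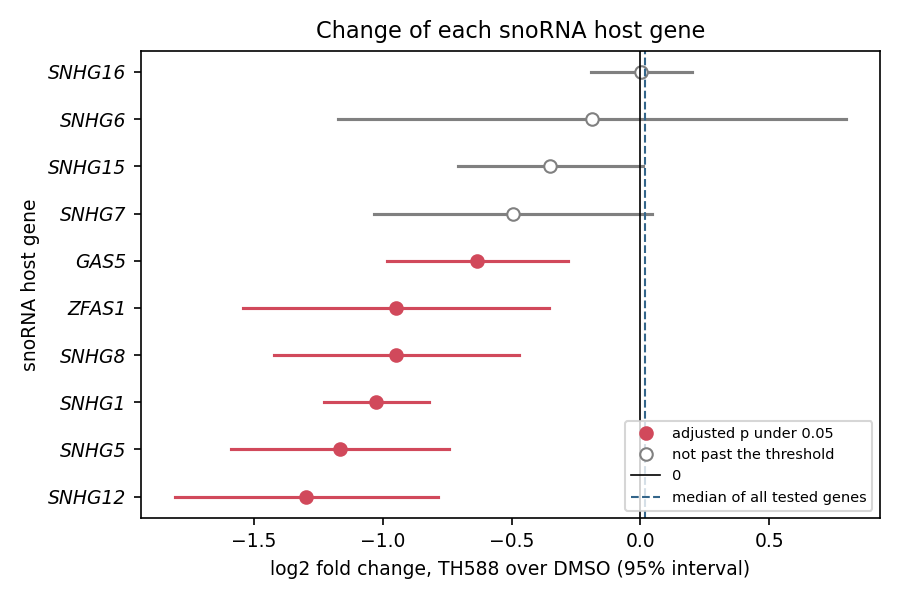
Log2 fold change of TH588 over DMSO for each host gene, with its 95% interval from edgeR's fit. The filled points are the 6 genes past the threshold, from -1.30 for *SNHG12* to -0.63 for *GAS5*, and the interval of *SNHG6* is the widest.

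**Figure D3:**
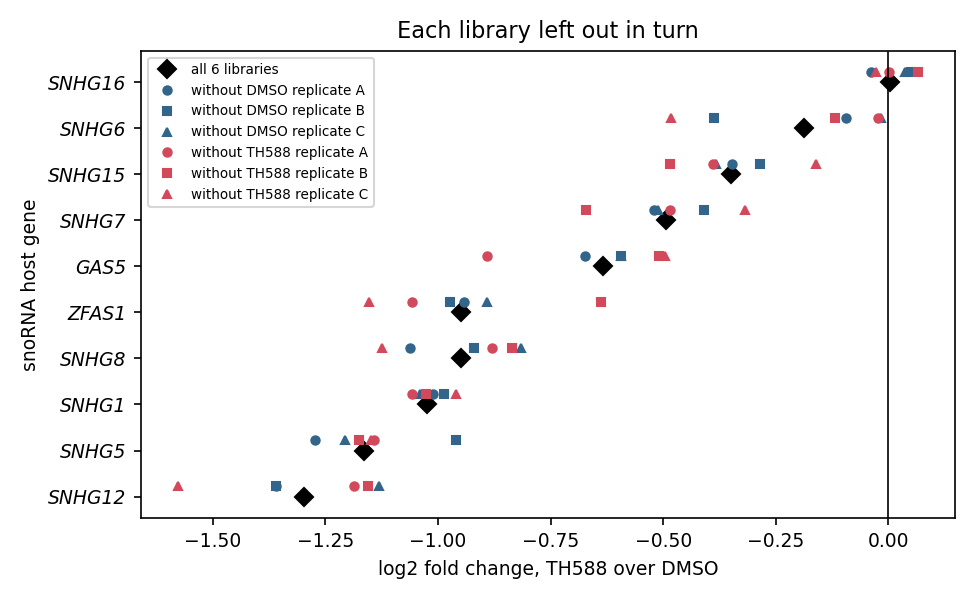
Log2 fold change of each host gene with all 6 libraries and with each library left out in turn. The points of *SNHG1* stay between -1.06 and -0.96, *GAS5* lies between -0.89 without TH588 replicate A and -0.49 without TH588 replicate C, and *ZFAS1* moves to -0.64 without TH588 replicate B.

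The host genes also differed widely in level. Per kilobase of annotated exon in the DMSO libraries, *GAS5* was highest at 38.2 ± 2.91 CPM per kb (SD, n = 3), followed by *SNHG16* at 18.9 ± 1.53, *SNHG1* at 8.37 ± 0.438 and *SNHG8* at 2.66 ± 0.477. *SNHG15* (1.46 ± 0.123) and *SNHG5* (1.32 ± 0.320) overlapped, as did *SNHG12* (0.842 ± 0.145) and *ZFAS1* (0.806 ± 0.0360), and *SNHG7* (0.277 ± 0.0286) and *SNHG6* (0.222 ± 0.0583). All other neighbours in this order were apart in every library. The exons in the deposited table fill most of some genes: *SNHG1* has 3756 exon bases between positions 62851988 and 62855914. *SNHG15* has 3647 between 44983023 and 44986961. Levels per kb may thus include unspliced RNA and are not levels of the spliced RNA alone. These levels divide by all exon bases, including those shared with exons of other genes. The shared part was 46.9% for *ZFAS1*, 3.65% for *SNHG15* and 2.51% for *SNHG5*, and its effect on the order was not tested. With TH588 the order of levels per kb was the same but for *ZFAS1* (0.431 ± 0.150) and *SNHG12* (0.335 ± 0.104), which changed places and differed by less than their spread. Among all genes tested *GAS5* stood at the 93.2nd percentile of levels per kb and *SNHG6* at the 16.3rd.

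Because *GAS5* and *SNHG16* together made up most of the summed level, the sum changed less than the typical member. The 10 genes summed to 289.2 ± 21.1 CPM in the DMSO group and to 217.3 ± 30.6 CPM after TH588 (SD, n = 3 per group). *GAS5* contributed 47.7% to 48.5% of this sum in the DMSO libraries, and 48.2%, 38.4% and 35.9% in the TH588 libraries A, B and C. The share of *SNHG16* was 34.7% to 35.2% with DMSO and 41.1% to 52.2% with TH588.

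A second readout comes from the snoRNAs themselves. The table holds 25 rows with a snoRNA symbol that lie inside 9 of the hosts on the same strand. None of these rows lies inside *GAS5*, so the snoRNAs of *GAS5* were not analysed here. Only 5 of the 25 rows had any count: *SNORD12B* and *SNORD12C* inside *ZFAS1*, *SNORD99* inside *SNHG12*, *SNORD30* inside *SNHG1* and *SNORD1B* inside *SNHG16*. The other 20 were at 0 in all 6 libraries, and each of these lies wholly inside exons that the table gives to its host. Of the 5 with counts, 4 lie wholly outside the exons of the host, and 48.6% of *SNORD30* lies inside them.

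The same held over the whole table. All 144 rows of snoRNAs and Cajal body RNAs that lie wholly inside exons of other genes were at 0 in every library, against 153 of 367 rows (41.7%) without any exon overlap. A count of 0 in these rows therefore cannot be read as absence of the snoRNA, and the sources used here do not say how reads that overlap more than 1 gene were counted. Exons of other genes, snoRNAs included, cover 1.16% of the exon bases of *GAS5*, 2.51% of *SNHG5*, 3.65% of *SNHG15*, 12.1% of *SNHG12*, 14.2% of *SNHG8* and 15.3% of *SNHG1*. The shares were larger for *SNHG7* (31.4%), *SNHG16* (33.4%) and *SNHG6* (36.4%). The part of this overlap in the low counts of some hosts was not tested.

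**Figure D4:**
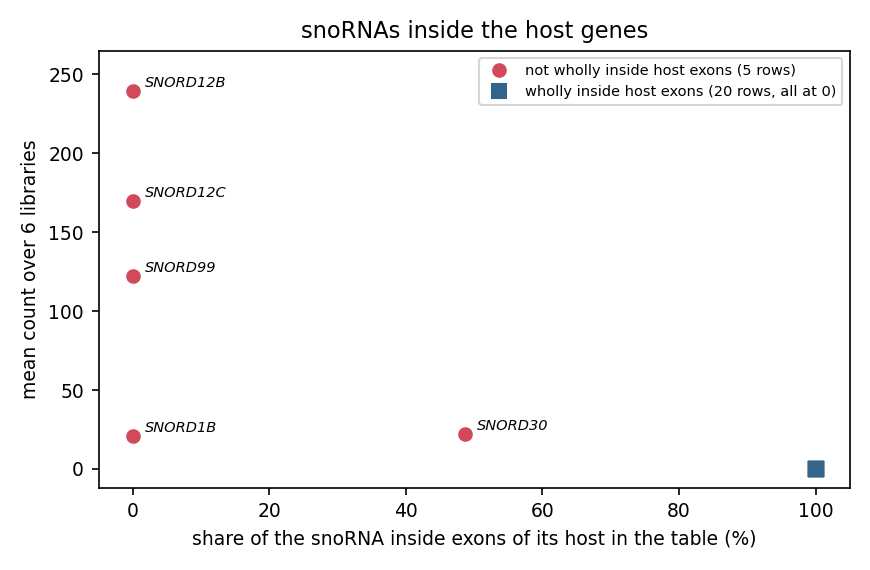
Mean count over 6 libraries of the 25 snoRNA rows inside host genes, against the share of the snoRNA that lies inside exons of its host. The 20 rows wholly inside host exons share the single square at 0 counts, and the 5 other rows all have counts.

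The snoRNAs that were called lower (adjusted p under 0.05 in edgeR's test) are printed here from GRCh38. Capitals mark a C box (TGATGA within the first 20 bases) and a D box (the last CTGA, where it starts within the last 15 bases), the short elements that box C/D proteins bind. In *SNORD99* no TGATGA was found there.
*SNORD12B* (chr20:49280319-49280409, plus strand): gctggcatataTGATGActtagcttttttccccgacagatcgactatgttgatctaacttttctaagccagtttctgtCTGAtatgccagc
*SNORD12C* (chr20:49278940-49279028, plus strand): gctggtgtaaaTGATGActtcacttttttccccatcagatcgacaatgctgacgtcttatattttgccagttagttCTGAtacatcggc
*SNORD99* (chr1:28578749-28578822, minus strand): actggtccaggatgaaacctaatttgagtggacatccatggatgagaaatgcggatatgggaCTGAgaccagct

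Of the 5 snoRNAs that could be tested, these 3 were called lower, against 25.3% of all genes tested, and 0 were called higher, also at an unadjusted p under 0.05 and with DESeq2 or limma-voom. *SNORD12B* was at 2.76, 4.11 and 4.39 CPM with DMSO and at 2.24, 2.02 and 2.15 CPM with TH588. Its change on the log2 scale was -0.82 with a standard error of 0.19 (adjusted p = 0.00353), and that of its host *ZFAS1* was -0.95. *SNORD12C* was at 1.75, 4.19 and 2.87 CPM with DMSO and at 1.72, 1.08 and 1.15 CPM with TH588, so that DMSO replicate A and TH588 replicate A almost met. It changed by -1.21 on the log2 scale, with a standard error of 0.30 (adjusted p = 0.00501).

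*SNORD99* was at 1.81, 2.18 and 1.80 CPM with DMSO and at 1.38, 1.25 and 0.743 CPM with TH588, without overlap. It changed by -0.81 on the log2 scale, with a standard error of 0.25 (adjusted p = 0.0167), against -1.30 for its host *SNHG12*. *SNORD30* and *SNORD1B*, with means of 21.8 and 20.8 counts, had log2 fold changes of -0.96 and -0.21 and stayed short of the threshold, at adjusted p = 0.165 and 0.755. Without DMSO replicate B, or without TH588 replicate C, 2 of the 3 snoRNAs were called. The libraries were made from polyadenylated RNA without marking the strand. Reads in these rows may stem from the mature snoRNA or from unspliced host RNA, which cannot be told apart in gene counts.

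The neighbours that start within 1000 bases on the opposite strand did not all follow their host. *SLC3A2*, the heavy chain of amino acid transporters, starts 188 bases from *SNHG1* and fell from 92.5 ± 1.76 to 55.1 ± 7.18 CPM (SD, n = 3 each; log2 fold change -0.74, adjusted p = 4.77e-05 from edgeR). *ZNFX1*, an antiviral helicase gene that starts 248 bases from *ZFAS1*, fell by 0.33 on the log2 scale (adjusted p = 0.00692). *ZBTB37*, a zinc finger gene that starts 800 bases from the start of *GAS5* in the deposited table and inside it, rose by 0.27 (adjusted p = 0.0404). The neighbour of *SNHG16*, ENSG00000267546, had at most 4 counts and could not be tested.

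Of 20 other noncoding snoRNA host genes, 9 passed the filter on low counts, of which 2 were lower, 1 was higher and 6 did not pass the threshold. Those lower were 22.2% of the 9, against 25.3% of all genes tested, of which 24.2% were higher. The median log2 fold change of the 9 was -0.05. *SNHG4* fell from 2.90 ± 0.528 to 0.994 ± 0.339 CPM (SD, n = 3 each; log2 fold change -1.63, adjusted p = 0.000165 from edgeR), and *SNHG22* rose by 0.36 (adjusted p = 0.0377). The other gene that fell was *SNHG3*, by 0.43, with overlap between the groups. *SNHG29* and *SNHG32*, at 123.3 ± 4.30 and 95.4 ± 7.95 CPM with DMSO, had log2 fold changes of 0.10 and 0.21 and did not pass the threshold. Without DMSO replicate C only 1 of these genes was called, and 1 instead of 2 was lower also without DMSO replicate B, TH588 replicate A or TH588 replicate B. The number called higher was 0 without DMSO replicate C, without TH588 replicate C and at an adjusted p under 0.01, and 3 without TH588 replicate B. With library size only 3 were higher and 1 lower. Exons of *MATR3* cover 25.7% of the exon bases of *SNHG4*, and 3 of the 20 genes had 0 counts in all libraries.

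Protein-coding genes that carry snoRNAs in their introns went both ways. Of 39, 14 were lower, 6 were higher and 19 did not pass the threshold. The lower genes were 35.9% of this list. Over all genes tested 25.3% were lower, 24.2% were higher and 49.6% were called in either direction. The median log2 fold change of the 39 was -0.09. The largest falls were those of *EIF4G2* (-1.08), a translation initiation factor, *DKC1* (-1.06), the pseudouridine synthase of box H/ACA particles, *GNL3* (-1.06), which encodes nucleostemin, and *HSPA8* (-0.99), a heat shock chaperone. Among the genes that rose were *RPL13* (0.52) and *RPL13A* (0.38), which encode ribosomal proteins, and *EEF2* (0.37), the elongation factor that moves the ribosome along mRNA. With library size only 12 were higher and 12 lower. Values of ribosomal protein genes are uncertain because their pseudogenes share sequence with them and the handling of such reads is not stated.

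TOP mRNAs for translation proteins other than ribosomal proteins were also mixed. Among 17 tested of 18 listed, 6 were lower, 4 were higher and the median log2 fold change was 0.02. The lower share was 35.3%, while 25.3% of all genes tested were lower, 24.2% higher and 49.6% called in either direction. *EEF1D* (-0.67), *NPM1* (-0.65), *NAP1L1* (-0.38) and *EEF1B2* (-0.36) fell, and *EEF2* (0.37), *EIF4B* (0.32), *EIF3F* (0.31) and *EIF3H* (0.28) rose. With library size only 7 were higher and 3 lower, and without DMSO replicate C 4 were higher and 3 lower. *EEF1G* was not tested, and exons of another gene cover 99.9% of its exon bases. *EEF1B2*, *EEF2*, *RACK1* and *TPT1* are also on the list of protein-coding hosts, so the counts of these lists are not separate.

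Genes for the proteins that bind snoRNAs or build their particles were mostly lower in RNA. Of 18 genes 15 were lower and 0 were higher, and the count of 0 was the same at an unadjusted p under 0.05, with DESeq2 and with limma-voom. The lower share was 83.3%, against 25.3% of all genes tested. The median log2 fold change was -0.59. *DKC1* fell from 364.1 ± 7.84 to 174.8 ± 2.98 CPM and *NOP58*, a core protein of box C/D particles, from 295.0 ± 8.68 to 141.6 ± 21.4 CPM (SD, n = 3 each). *NUFIP1*, an assembly factor, and *GAR1*, a core protein of box H/ACA particles, followed with log2 fold changes of -1.02 and -0.82. *FBL*, the methyltransferase of box C/D particles, fell by 0.47. *NOP10* (0.16), *PIH1D1* (-0.09) and *ZNHIT3* (-0.09) did not pass the threshold. With each library left out in turn 15 genes were called lower every time. *DKC1* and *NOP56* are also on the list of protein-coding hosts and are counted in both.

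Among 15 factors of NMD and the exon junction complex, 8 were lower, 1 was higher and the median log2 fold change was -0.22. The lower share was 53.3%, against 25.3% of all genes tested, of which 24.2% were higher. The exon junction genes *MAGOH* (-0.84), *EIF4A3* (-0.79), *RNPS1* (-0.51) and *RBM8A* (-0.35) fell, and *CASC3* (0.32), of the same complex, rose. *UPF1*, the central helicase of NMD, fell by 0.22 (adjusted p = 0.0265). With library size only 3 were lower and 1 was higher. Without TH588 replicate C 5 factors were called in either direction, and those called lower numbered 5 without DMSO replicate A or C.

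**Figure D5:**
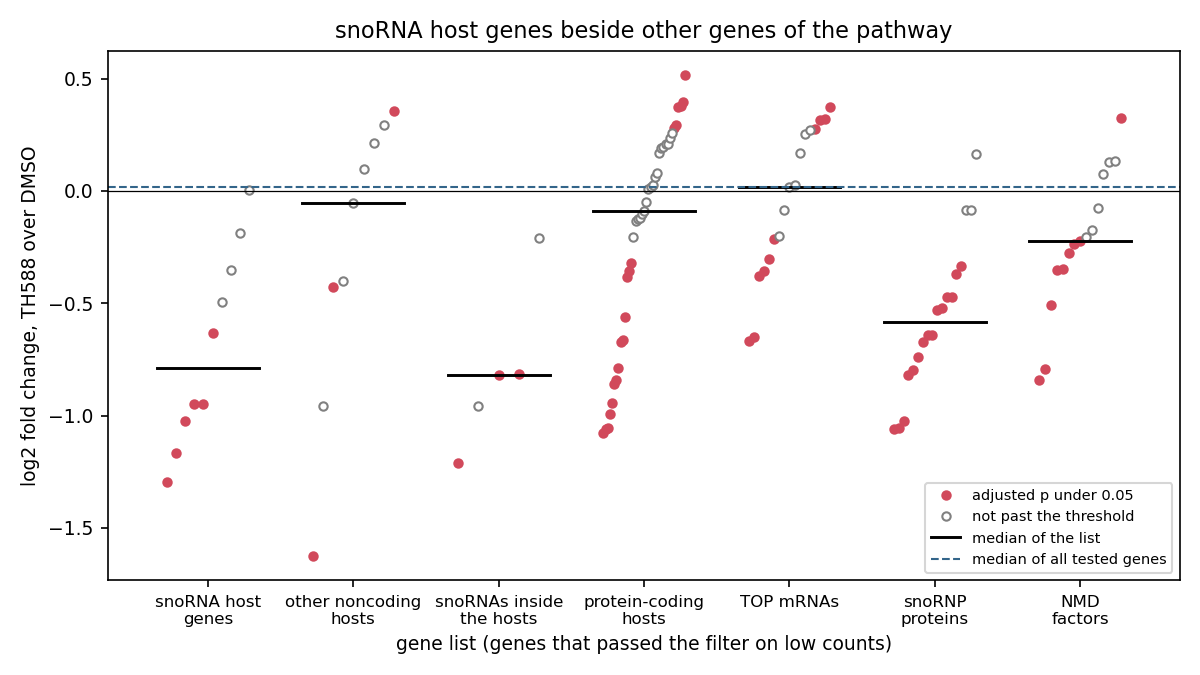
Log2 fold change of TH588 over DMSO for each tested gene of the host genes and of 6 lists of related genes, with the median of each list as a bar and that of all tested genes as a dashed line. A gene on several lists is drawn in each of them. The medians are -0.79 for the host genes, -0.59 for genes of snoRNP (small nucleolar ribonucleoprotein) proteins and -0.09 for protein-coding hosts.

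Among 9595 genes outside these lists whose average log2 CPM reached 2, the 5 whose profile over the 6 libraries lay closest to the median profile of the host genes were *MAT2A*, *TMEM70*, *GTF2A2*, *CKS1B* and *OAT*. Their root mean square difference from that profile was 0.0330 to 0.0445 on the log2 scale, after each gene was centred on its DMSO mean. *MAT2A*, which encodes a methionine adenosyltransferase, had a log2 fold change of -0.81, and *CKS1B*, a cofactor of cyclin-dependent kinases, also of -0.81. With TH588 the median profile of the host genes lay at -0.69 in replicate A, -0.97 in B and -0.75 in C, so B was the lowest.

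The positions in the deposited table, on GRCh38, overlap for all 10 members the GENCODE version 44 gene that carries the same identifier, which GENCODE types as long noncoding RNAs. Both ends are the same as in GENCODE only for *SNHG7*. The positions given here are those of the deposited table. *SNHG1* (ENSG00000255717) runs from 62851988 to 62855914 on chromosome 11, *SNHG12* (ENSG00000197989) from 28578538 to 28582983 and *GAS5* (ENSG00000234741) from 173863900 to 173868882 on chromosome 1. *SNHG5* (ENSG00000203875) lies on chromosome 6 from 85660950 to 85678736, *SNHG8* (ENSG00000269893) on chromosome 4 from 118278709 to 118279823, and *ZFAS1* (ENSG00000177410) on chromosome 20 from 49278178 to 49295738. *SNHG16* (ENSG00000163597) lies on chromosome 17 from 76557766 to 76565348 and *SNHG15* (ENSG00000232956) on chromosome 7 from 44983023 to 44986961. *SNHG7* (ENSG00000233016) lies on chromosome 9 from 136721366 to 136728184, and *SNHG6* (ENSG00000245910) on chromosome 8 from 66921684 to 66926398.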

How the data were processed

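RNA from A2780 cells was made into TruSeq v2 libraries, which do not mark the strand. Per the labels and the supplementary methods, the authors aligned reads to GRCh38 with TopHat and counted them per gene with featureCounts 1.4.6, and they deposited raw counts. Their gene models are called UCSC models, while the table holds Ensembl identifiers, of which 57754 of 58336 matched a symbol. How reads over several genes were counted is not given in the sources used here.

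Counts were compared with edgeR 4.0.16 (R 4.3.3): TMM normalization, default filter on low counts, quasi-likelihood test, Benjamini-Hochberg adjustment over 15844 genes, no term for the replicate letter. The study used DESeq2, run here as an alternative (1.42.0), as was limma-voom (3.58.1). The procedure was tested on simulated data. The standard error is the log2 fold change over the root of the F statistic. With 3 against 3 libraries an exact permutation test cannot go below p = 0.1. Replicates differed by more than sampling noise (chi-square per degree of freedom 23.5 to 165.3). The log2 scale values used a prior count of 2. For counting error only, a 0 is compatible with 3 counts, which is 0.0276 to 0.112 CPM.

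Named were all members, up to 4 genes per direction and list with the largest change among called genes without overlap between groups, partners within 1000 bases, and the 5 genes most alike. A gene that this rule named is not reported here. SNHG3, UPF1, FBL, SNHG29, SNHG32 and the members of lists named as not past the threshold were chosen after their values were seen, as was the count of snoRNA rows inside exons of other genes. Members and lists were chosen with earlier results of these data known. snoRNAs inside a host were found by coordinates.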

Additional observations from a re-analysis of the deposited data

How the results depend on the processing

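The 15 alternatives were other scalings, filters, tools and thresholds, the replicate block, and each library left out in turn. In 13 of them 6 host genes were called lower. At an adjusted p under 0.01 there were 5, with *ZFAS1* (-0.948) no longer called, and without TH588 replicate B there were 7, with *SNHG15* added. The median log2 fold change of the host genes was -0.925 with at least 10 counts in every library, where *SNHG6* was not tested, and ranged from -0.886 to -0.655 with each library left out. *SNHG16* changed sign without DMSO replicate A (-0.039) and without TH588 replicate C (-0.028), with a range from -0.039 to 0.065 when each library was left out, and was 0.106 with library size only. The cause was not tested. Called NMD factors numbered 4 with library size only, 5 at an adjusted p under 0.01, and 5 to 10 with each library left out. Called other noncoding host genes numbered 1 at an adjusted p under 0.01 and 1 to 4 with each library left out. No other total of calls moved by more than 1.5 times. The snoRNAs inside the hosts gave no value where small nucleolar rows were removed.

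Libraries that share a letter (A, B or C) did not deviate together: the correlations between their deviations were -0.0706, -0.0831 and 0.00082. A fit with the letter as replicate block called 7195 genes, 7129 of them also called without it, and the host genes called lower numbered 6. At the depth of TH588 replicate A, *SNHG6* rests on 4 counts, and its interval is the widest among the host genes. Groups of 3 were not tested for outlying libraries.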
